A study of Mus musculus with 4 samples.

Results

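The troponin and tropomyosin genes encode the proteins that switch the thin filament of muscle on and off. They were taken by name from the probe sets that the array annotation assigns to a single gene, with the highest 4-array mean used where a gene had several. All 10 listed genes were found among 19938 genes with such a probe set. They are 3 troponin T genes, 2 troponin I genes, 1 troponin C gene and 4 tropomyosin genes, and all 10 were among the 16708 genes bright enough to be tested.

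Expression was profiled on 4 Affymetrix Mouse Gene ST arrays, each hybridised with total RNA from 1 mouse heart sample. All hearts had been under pressure overload for 1 week, brought on by a band that narrows the aortic arch (transverse aortic constriction, TAC). The labels give 1 wild type sample and 3 samples from MAFbx knockout (MAFbx KO) mice, named here wild type 1 and knockouts 1 to 3. MAFbx, also called atrogin-1, is the muscle-specific F-box protein encoded by Fbxo32 that brings substrates to a ubiquitin ligase. The labels give no strain, age, sex, part of the heart or deleted part of the gene, and no unoperated group entered this comparison, so an effect of the constriction itself was not measured. They do not say outright that each sample is a separate animal, and a p-value then measures only the spread between these samples.

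Values are log2 expression after RMA, which normalizes arrays to a common distribution. One unit is a factor of 2 in signal. Probe sets differ in how brightly they bind, so levels were compared only between arrays for the same gene and never between genes. Differences are knockout minus wild type, tested across all 16708 genes with limma, a linear model that shares information on spread between genes. A single wild type array cannot show its own spread, so the model takes it to vary as much as the knockout arrays do. With these group sizes the smallest p of an exact permutation test is 0.25.

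As background, tropomyosin is a coiled coil that lies along the actin filament and covers or uncovers the sites where myosin binds. Troponin T ties the troponin complex to tropomyosin, troponin I holds the filament in the off state, and calcium binding to troponin C releases it. The adult mouse heart uses Tnnt2, Tnni3, Tnnc1 and Tpm1. Tnnt1 and Tnni1 are the slow skeletal forms, and Tnni1 is also the troponin I of the fetal heart. Tnnt3 is the fast skeletal troponin T. Tpm2 encodes beta-tropomyosin of skeletal and smooth muscle, Tpm3 makes both a slow skeletal and several cytoskeletal forms, and Tpm4 encodes a tropomyosin of the cytoskeleton in non-muscle cells.

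The arrays did not divide by genotype alone. Fbxo32 read 7.54 in wild type 1 and 5.65, 5.61 and 5.56 in knockouts 1, 2 and 3, a log2 difference of -1.93 (SE 0.17, limma adjusted p = 0.0573). Xist, transcribed from the inactive X, was high in knockouts 1 and 2 (9.18 and 9.52) and low in wild type 1 and knockout 3 (4.13 and 3.20), and the Y-linked Eif2s3y read the opposite way. By these transcripts the first pair had a female pattern and the second pair a male one, so values of knockout 3 against wild type 1 are given beside the mean differences. Array medians over the genes tested ran from 6.57 to 6.62. All 9 cardiomyocyte markers on a fixed list were tested, and their summed level (log2 of the summed linear values) was 16.14 in wild type 1 and 16.15 to 16.27 in the knockout hearts. Of 10 skeletal muscle markers, Myh1 and Myh4, fast skeletal myosins, lay under the filter on dim genes, and the summed level of that list was 8.65 in wild type 1 and 8.48 to 8.82 in the knockout hearts.

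The promoters of the genes that the results turn on are shown first, for the 4 adult cardiac genes and the 3 tropomyosin genes with the largest differences. Each is the 250 bases before a RefSeq transcript start in GRCm38.p6, read 5′ to 3′ on the gene's own strand, and capitals mark the letters CATTCCT on either strand, the M-CAT element that TEAD factors bind in muscle genes. The cardiac windows are both starts of Tnnt2 (troponin T) and those of Tnni3 (troponin I), Tnnc1 (troponin C) and Tpm1. The other windows belong to Tpm2, Tpm4 and both starts of Tpm3.
Tnnt2, first start, chr1:135836084-135836333, plus strand: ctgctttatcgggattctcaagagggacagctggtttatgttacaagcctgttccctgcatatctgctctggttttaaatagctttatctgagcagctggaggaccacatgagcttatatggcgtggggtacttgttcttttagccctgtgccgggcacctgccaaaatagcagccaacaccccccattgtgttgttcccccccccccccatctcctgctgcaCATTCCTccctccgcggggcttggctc
Tnnt2, second start, chr1:135836739-135836988, plus strand: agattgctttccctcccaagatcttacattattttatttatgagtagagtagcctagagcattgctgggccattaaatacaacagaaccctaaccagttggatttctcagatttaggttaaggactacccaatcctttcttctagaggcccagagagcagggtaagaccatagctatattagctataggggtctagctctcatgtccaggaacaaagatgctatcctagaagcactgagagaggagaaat
Tnni3, chr7:4522529-4522778, minus strand: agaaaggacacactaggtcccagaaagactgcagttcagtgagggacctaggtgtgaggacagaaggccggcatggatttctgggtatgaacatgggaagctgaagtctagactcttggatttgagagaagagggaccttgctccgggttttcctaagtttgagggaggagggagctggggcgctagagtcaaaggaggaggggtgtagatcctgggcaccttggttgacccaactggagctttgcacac
Tnnc1, chr14:31208062-31208311, plus strand: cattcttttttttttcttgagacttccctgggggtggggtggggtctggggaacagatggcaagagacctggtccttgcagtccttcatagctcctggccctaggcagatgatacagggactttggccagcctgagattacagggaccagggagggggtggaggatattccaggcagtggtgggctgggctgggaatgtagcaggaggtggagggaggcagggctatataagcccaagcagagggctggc
Tpm1, chr9:67049214-67049463, minus strand: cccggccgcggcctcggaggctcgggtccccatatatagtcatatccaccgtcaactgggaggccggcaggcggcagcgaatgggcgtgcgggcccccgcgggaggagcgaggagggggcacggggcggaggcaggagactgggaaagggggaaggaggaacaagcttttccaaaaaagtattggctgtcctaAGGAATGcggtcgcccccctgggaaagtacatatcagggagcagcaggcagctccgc
Tpm2, chr4:43523555-43523804, minus strand: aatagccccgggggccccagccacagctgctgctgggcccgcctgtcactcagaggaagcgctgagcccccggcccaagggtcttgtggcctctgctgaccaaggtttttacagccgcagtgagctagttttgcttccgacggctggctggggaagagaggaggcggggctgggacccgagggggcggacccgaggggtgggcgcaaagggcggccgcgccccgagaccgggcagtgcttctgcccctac
Tpm3, upstream start, chr3:90072401-90072650, plus strand: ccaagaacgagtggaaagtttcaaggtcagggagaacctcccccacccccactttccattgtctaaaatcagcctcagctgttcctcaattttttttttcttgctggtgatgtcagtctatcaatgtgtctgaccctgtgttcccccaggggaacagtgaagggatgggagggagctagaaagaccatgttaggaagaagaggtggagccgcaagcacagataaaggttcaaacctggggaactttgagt
Tpm3, downstream start, chr3:90079271-90079520, plus strand: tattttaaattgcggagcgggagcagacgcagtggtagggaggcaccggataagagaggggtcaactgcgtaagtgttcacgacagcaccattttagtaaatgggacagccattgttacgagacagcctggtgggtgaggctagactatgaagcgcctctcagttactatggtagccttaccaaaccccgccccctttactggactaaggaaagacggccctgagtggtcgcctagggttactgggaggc
Tpm4, chr8:72135038-72135287, plus strand: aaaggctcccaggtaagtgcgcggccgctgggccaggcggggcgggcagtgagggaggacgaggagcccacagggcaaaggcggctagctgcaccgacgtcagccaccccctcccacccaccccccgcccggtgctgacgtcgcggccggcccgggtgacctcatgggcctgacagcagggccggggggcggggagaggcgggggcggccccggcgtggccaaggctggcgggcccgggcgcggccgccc

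M-CAT stood in 2 of the 12 windows that RefSeq gives for 9 of the member genes, the first Tnnt2 window (beginning 27 bases before the start) and the Tpm1 window (57 bases before the start, on the opposite strand). The second Tnnt2 window and those of Tnni3, Tnnc1, Tpm2, Tpm3 and Tpm4 held no match, so M-CAT did not divide the cardiac windows from the others. It stood in 4.51% of 32851 windows of that length over all genes. The TATA box (TATAAA, either strand) stood in the Tnnt1 window, 30 bases before the start, against 12.4% of all windows. The CArG box of serum response factor and the MEF2 site stood in 0 of the 12 windows, against 1.47% and 2.92% of all windows. A match describes the letters only, and a window without one says only that those letters are not in it. GC content was 78.8% in the Tpm4 window, 69.6% in Tpm2, 65.2% in Tpm1, 54% in the first Tnnt2 window, and 48.8% and 53.6% in the Tpm3 windows. Tnnt3 is named only.

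Of the 4 adult cardiac members, Tnnt2, Tnnc1 and Tpm1 varied little between the arrays, and Tnni3 lay above wild type in knockouts 1 and 2 and below it in knockout 3. Tpm2, Tpm3 and Tpm4 lay below wild type on all 3 knockout arrays, with mean differences of -0.58, -0.78 and -0.69 on the log2 scale (1.5-fold, 1.71-fold and 1.61-fold). For Tpm3 and Tpm4 knockouts 1 and 2 lay lowest, and for Tpm2 knockout 1 did. Tnnt2, Tnnc1 and Tpm1 read within 0.19 of the wild type value on every knockout array, and Tnni3 within 0.36. None of the 10 members passed the limma test at an adjusted p of 0.05, where 1 gene of 16708 (0.00599%) did. At an unadjusted limma p under 0.05, 1 member passed, Tpm3, lower, against 5.59% of all genes in either direction, 3.87% lower and 1.72% higher. With the mean over all probe sets of a gene the count was 0. Without knockout 1 or knockout 2 the count was 0, and without knockout 3 it was 2, Tpm3 and Tpm4, when 9.97% of all genes passed.

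All 3 knockout arrays lay below the wild type array for 4 of the 10 members, the 4 tropomyosin genes, and above it for 0. Over all genes tested the shares were 24.2% below and 24.2% above, 48.4% in all, so the total of 4 of 10 is near the background. Without knockout 3, 7 members lay on 1 side of wild type, against 70.1% of all genes. The median difference was -0.08 over the 10 members, -0.05 over the 6 troponin genes and -0.64 over the 4 tropomyosin genes, and 0 over all genes tested. In knockout 3 alone against wild type 1 these medians were -0.09, -0.03 and -0.22.

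**Figure D1:**
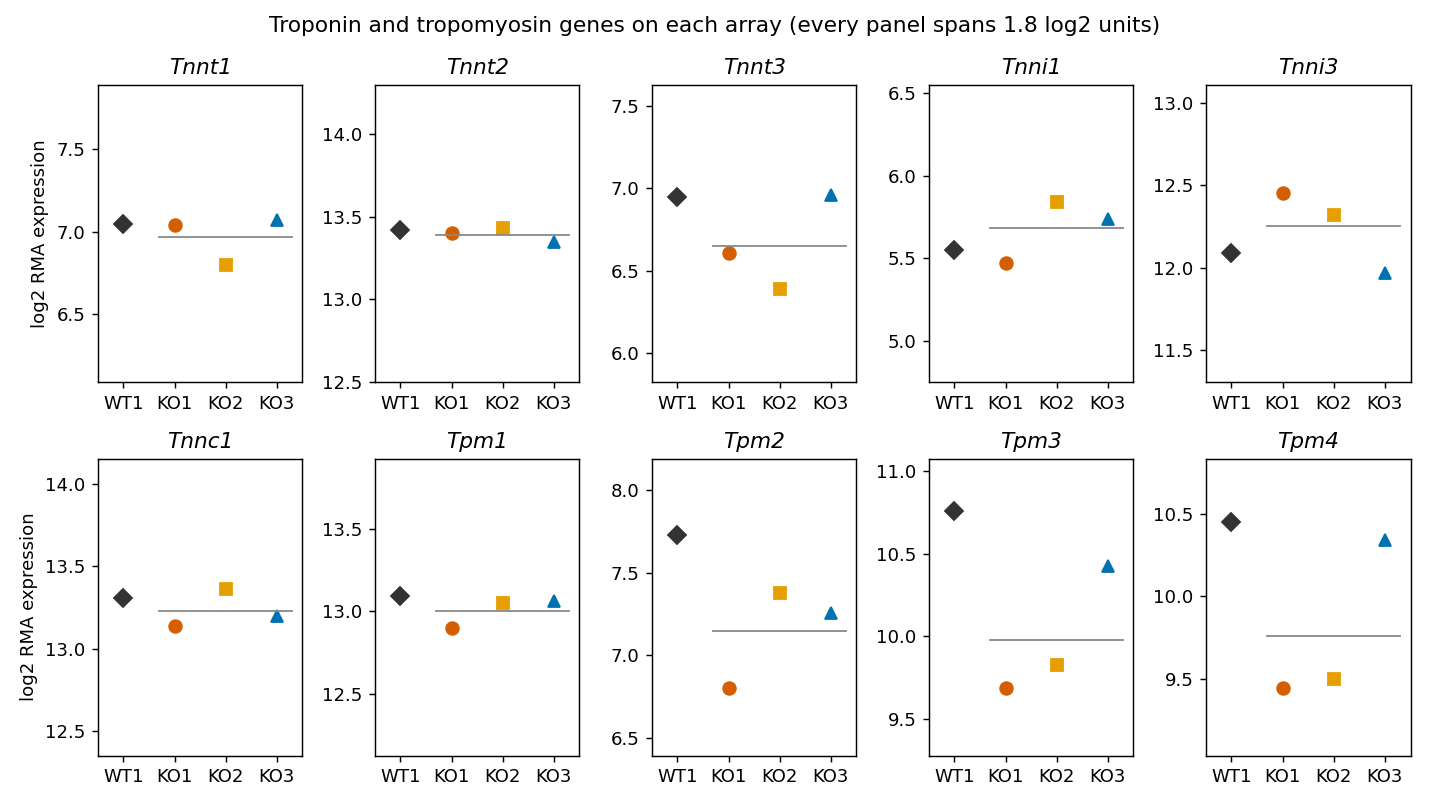
Log2 RMA expression of the 10 genes on the wild type array (WT1, diamond) and the 3 knockout arrays (KO1 to KO3), with the knockout mean as a grey line; every panel spans the same number of log2 units. Tnnt2 is flat across the 4 arrays, whereas Tpm3 and Tpm4 are high in wild type 1 and knockout 3 and low in knockouts 1 and 2.

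The troponin T genes come first. Tnnt2, the cardiac form that anchors the complex, read 13.42 in wild type 1 and 13.40, 13.43 and 13.35 in knockouts 1, 2 and 3. Its range of 0.08 over the 4 arrays was so narrow that 98.7% of all genes tested had one at least as wide. The groups overlapped, and the difference was -0.03 (SE 0.17, 95% interval -0.43 to 0.37, limma adjusted p = 0.997). The far end of that interval is a 1.34-fold difference, so larger changes of Tnnt2 lie outside it.

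Tnnt1, the slow skeletal form, read 7.05 in wild type 1 and 7.04, 6.80 and 7.07 in the knockout hearts. Knockout 2 lay 0.25 below wild type, and knockouts 1 and 3 lay within 0.02 of it. Its difference was -0.08 (SE 0.19, interval -0.53 to 0.37, limma adjusted p = 0.997). Tnnt3, the fast skeletal form, read 6.95 in wild type 1 against 6.61, 6.39 and 6.96. Knockout 3 equalled wild type within 0.01, while knockouts 1 and 2 lay 0.34 and 0.56 below it (limma difference -0.30, SE 0.24, adjusted p = 0.964). Tnnt3 was the troponin gene with the widest range, 0.57, which 20.5% of all genes tested reached.

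The troponin I genes are the classical pair of the developing heart, in which Tnni1 gives way to Tnni3 after birth. Tnni3, the adult cardiac inhibitor, read 12.09 in wild type 1 and 12.45, 12.32 and 11.97 in knockouts 1, 2 and 3. Knockouts 1 and 2 lay above wild type and knockout 3 below it, so the groups overlapped, with a difference of 0.16 (SE 0.23, interval -0.38 to 0.69, limma adjusted p = 0.990). Tnni1, the fetal and slow skeletal inhibitor, read 5.55 in wild type 1 and 5.47, 5.84 and 5.74 in the knockout hearts. Here knockout 1 lay below wild type and the other two above it, with a difference of 0.13 (SE 0.20, interval -0.35 to 0.62, limma adjusted p = 0.990).

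The balance of fetal to adult troponin I was described by the difference Tnni1 minus Tnni3 within an array, compared between arrays. Tnni1 read between 5.47 and 5.84, below the array medians of 6.57 to 6.62. RMA shrinks differences at low signal, so a shift of Tnni1 could be understated. Relative to wild type 1 the difference Tnni1 minus Tnni3 was -0.44 in knockout 1, 0.06 in knockout 2 and 0.31 in knockout 3. The mean of -0.02 ± 0.38 (SD, n = 3) is small against the spread, and the knockout hearts did not share a direction. The same measure for slow skeletal against cardiac troponin T, Tnnt1 minus Tnnt2, averaged -0.05 ± 0.18 (SD, n = 3) and was 0.09 in knockout 3. For fast skeletal against cardiac troponin T, Tnnt3 minus Tnnt2, it averaged -0.27 ± 0.33 (SD, n = 3) and was 0.08 in knockout 3.

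Tnnc1, the calcium-binding subunit shared by cardiac and slow skeletal muscle, read 13.31 in wild type 1 and 13.14, 13.36 and 13.20 in knockouts 1, 2 and 3. The wild type value lay inside the knockout range, and the difference was -0.08 (SE 0.18, interval -0.51 to 0.35, limma adjusted p = 0.997). Tnni2 and Tnnc2, the fast skeletal troponin I and C genes, are not members. They read 6.39 and 5.37 in wild type 1 and differed by -0.04 and 0.22 in the knockout hearts.

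Troponin genes lie in pairs on the mouse chromosomes, each pair holding a troponin I and a troponin T gene. In the RefSeq gene table Tnni3 and Tnnt1 are direct neighbours on chromosome 7, with 0 genes between them, while Tnni1 and Tnnt2 on chromosome 1 have 1 gene between them, Lad1. Tnni2 and Tnnt3, also on chromosome 7, have Lsp1 between them. In knockouts 1, 2 and 3 Tnni3 differed from wild type by 0.36, 0.23 and -0.12, and Tnnt1 by -0.01, -0.25 and 0.02. Tnni1 differed by -0.08, 0.29 and 0.19, and Tnnt2 by -0.02, 0.01 and -0.07. Tnni2 differed by -0.1, -0.06 and 0.05, and Tnnt3 by -0.34, -0.56 and 0.01.

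**Figure D2:**
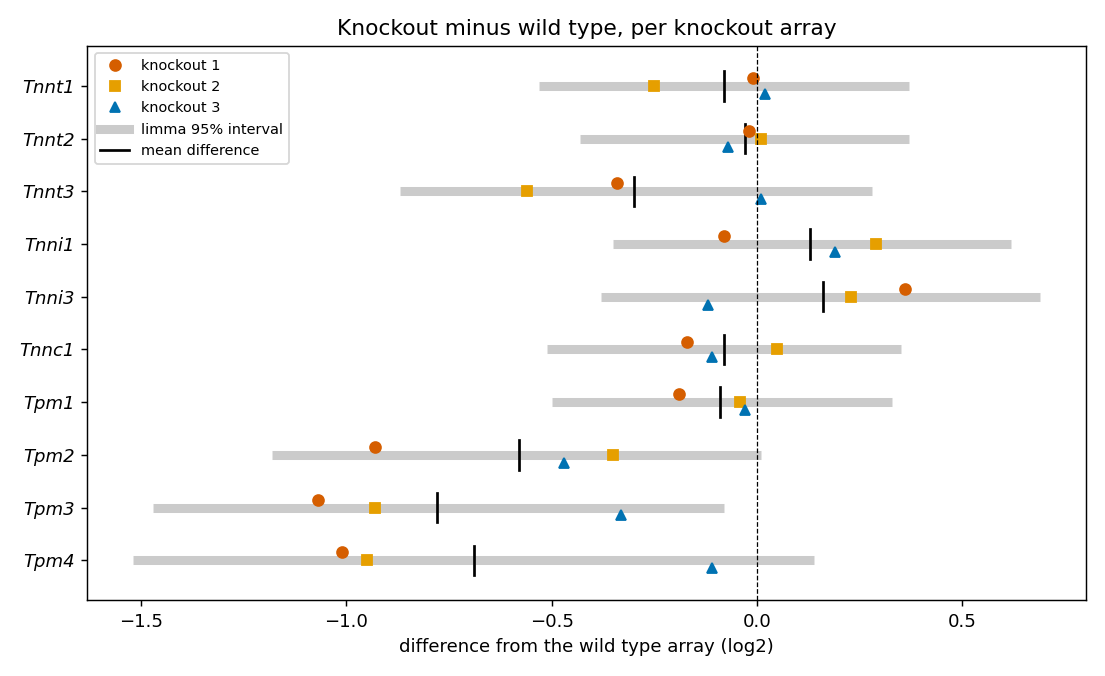
Difference of each knockout array from the wild type array (log2, points) for the 10 genes, with the mean difference (black bar) and its 95% interval from limma (grey). The intervals of the 6 troponin genes and of Tpm1 are spread on both sides of 0, and that of Tpm3, from -1.47 to -0.08, is the only one of the 10 that lies wholly below 0.

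Among the tropomyosins, Tpm1, the sarcomeric form of the heart, read 13.09 in wild type 1 and 12.90, 13.05 and 13.06 in knockouts 1, 2 and 3. All 3 knockout arrays lay below wild type, though knockouts 2 and 3 by 0.04 and 0.03 only. The difference was -0.09 (SE 0.18, interval -0.50 to 0.33, limma adjusted p = 0.994).

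Tpm2, beta-tropomyosin, read 7.73 in wild type 1 and 6.80, 7.38 and 7.26 in the knockout hearts. Every knockout heart lay below wild type, knockout 1 the lowest, and knockout 3 was 0.47 below. The knockout mean was 7.15 ± 0.31 (SD, n = 3), and the difference of -0.58 (SE 0.25, interval -1.18 to 0.01) had an unadjusted limma p of 0.0537 and an adjusted p of 0.895. Of all genes tested 3.27% had a difference as low or lower.

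Tpm3, the gene of slow skeletal and cytoskeletal tropomyosins, read 10.76 in wild type 1 and 9.69, 9.83 and 10.43 in knockouts 1, 2 and 3. Knockouts 1 and 2 lay close together about 1 unit below wild type, and knockout 3 was 0.33 below. Its range of 1.07 was the widest of the 10 members, and 2.96% of all genes tested had one as wide. The difference was -0.78 (SE 0.29, interval -1.47 to -0.08), with an unadjusted limma p of 0.0333 and an adjusted p of 0.825. Leaving out knockout 3 gave -1.0, and leaving out knockout 1 or knockout 2 gave -0.63 or -0.70.

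Tpm4, a cytoskeletal tropomyosin of non-muscle cells, read 10.45 in wild type 1 and 9.44, 9.50 and 10.34 in the knockout hearts. Knockouts 1 and 2 were again about 1 unit lower, while knockout 3 was 0.11 below wild type. The knockout arrays thus differed among themselves more than knockout 3 did from wild type, with a knockout SD of 0.50 that 2.1% of all genes tested reached. The difference was -0.69 (SE 0.35, interval -1.52 to 0.14, limma adjusted p = 0.935), -0.98 without knockout 3, and -0.53 and -0.56 without knockouts 1 and 2.

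Set against the cardiac Tpm1 within each array, the other tropomyosins stood lower in every knockout heart than in wild type 1. Tpm2 minus Tpm1 moved by -0.74, -0.31 and -0.44 in knockouts 1, 2 and 3, Tpm3 minus Tpm1 by -0.88, -0.89 and -0.30, and Tpm4 minus Tpm1 by -0.82, -0.91 and -0.08. The means were -0.50 ± 0.22, -0.69 ± 0.34 and -0.60 ± 0.46 (SD, n = 3). For Tpm4 the move in knockout 3 was small beside that spread. These changes show an unequal difference between the tropomyosin genes, with no test across a single wild type array.

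Tpm3 could be read on 4 probe sets assigned to it alone, and the one with the highest mean gave the values above. That probe set lists all 13 transcript accessions given for Tpm3, and the other three list 3, 8 and 3 of them. In the same order these gave mean differences of -0.30, -0.60 and -0.58, and knockout 3 lay 0.11 below, 0.09 below and level with wild type on them. The smallest of these, probe set 10493633, read 8.48 in wild type 1 and 7.91, 8.25 and 8.37 in the knockout hearts. All 4 probe sets thus placed knockout 1 lowest and knockout 3 nearest to wild type, but the size of the difference depended on the probe set by a factor above 1.5. RefSeq lists 3 further symbols built on the name Tpm3 (Tpm3-rs2, Tpm3-rs3 and Tpm3-rs7), and no probe set here is named for one. Whether these are pseudogenes was not checked. Positions of the probe sets were not read either, so which of the 4 lies at Tpm3 itself is not known. Signal from Tpm3 and from such sequences could not be separated. A further probe set that lists Tpm4 beside another gene was left out by the rule. Gene-level probe sets also do not separate the muscle and cytoskeletal transcripts of Tpm1, Tpm2 and Tpm3.

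**Figure D3:**
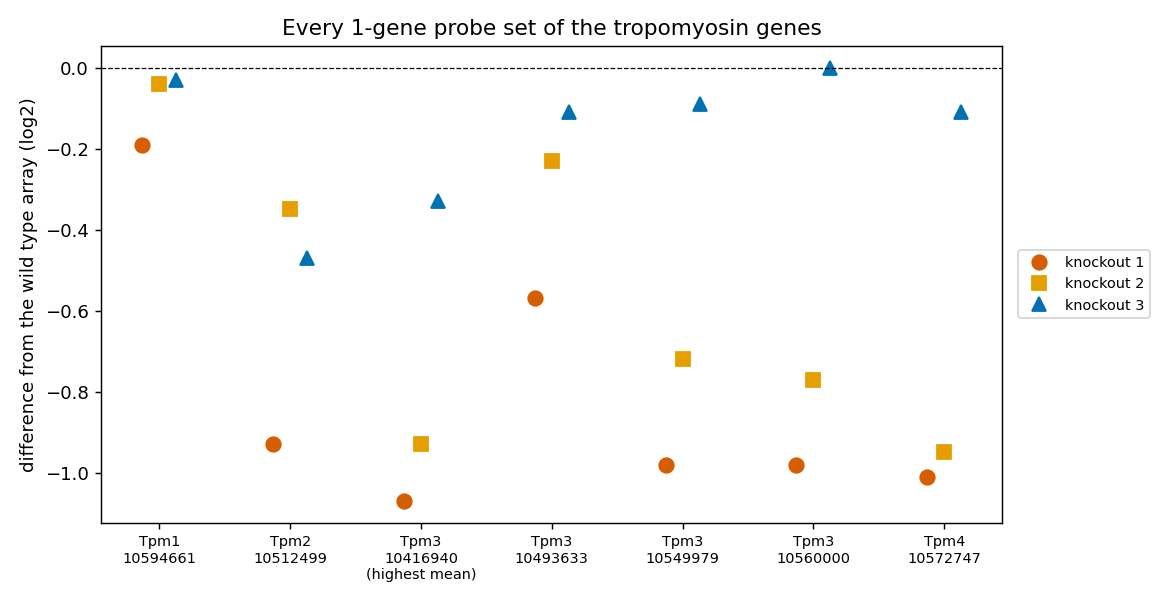
Difference of each knockout array from the wild type array (log2) on every probe set assigned to a single tropomyosin gene, named by probe set number. Knockout 1 is the lowest array on all 7, knockout 3 is the nearest to wild type on all but the Tpm2 probe set, and the Tpm3 mean differences run from -0.78 to -0.30.

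Tpm3 and Tpm4 followed each other closely. After centring each gene on its 4-array mean, the root mean square difference between them over the 4 arrays was 0.094 log2 units, against 0.27 between Tpm3 and Tpm2 and 0.383 between Tpm3 and Tpm1. By the same measure the genes most like Tpm3 were Mcm4, a subunit of the replicative helicase (0.023), Adgre1, a surface receptor of macrophages (0.033), Cd300ld (0.042) and Slc15a3 (0.047). The genes most like Tpm4 were Dlgap5, a mitotic spindle protein (0.033), Mcm5, another helicase subunit (0.038), Shcbp1 (0.039) and Incenp, of the chromosomal passenger complex of mitosis (0.047). For Tpm2 they were Fcgr4, an Fc receptor of myeloid cells (0.036), Rab29, a small GTPase (0.043), Akr1b8 (0.049) and Rpl5, a ribosomal protein (0.058). Within 0.1 of Tpm3, Tpm4 and Tpm2 lay 53, 39 and 52 genes, so 4 arrays set none of these likenesses apart from many others.

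Other cell types of the heart make Tpm2, Tpm3 and Tpm4, and their markers varied over the same arrays. In whole tissue, fewer cells of a type and less RNA per cell cannot be told apart. All 6 macrophage markers lay below wild type on the 3 knockout arrays, where 24.2% of all genes tested did. Their summed level was 11.94 in wild type 1 and 10.62 to 11.54 in the knockout hearts. Their median differences were -1.31, -0.83 and -0.62 in knockouts 1, 2 and 3. Adgre1, already named among the genes most like Tpm3, read 7.93 in wild type 1 and 6.87, 7.07 and 7.67 in the knockout hearts. Cd68, Lyz2 and Mrc1, like Adgre1, were lowest in knockout 1. Itgam and Csf1r were lowest in knockout 2, at 6.44 and 8.03 against 8.27 and 8.61 in wild type 1.

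Of 9 fibroblast markers 1 lay below and 2 above wild type on all knockout arrays, where 24.2% of all genes tested lay on each side. Their summed level was 13.53 in wild type 1 and 12.95 to 14.09 in the knockout hearts. Postn, made by activated fibroblasts, read 10.66 in wild type 1 and 8.85, 9.92 and 11.69, so that knockout 3 exceeded wild type. Col1a1, Col3a1, Thy1 and Ddr2 also lay below wild type in knockouts 1 and 2 and above it in knockout 3. Dcn lay above wild type by 0.08, 0.42 and 0.34 in knockouts 1, 2 and 3, and Lum by 0.24, 0.65 and 0.75. Pdgfra lay below wild type on every knockout array, and Tcf21 only in knockout 2. Of 8 smooth muscle markers 4 lay below and 2 above wild type on all knockout arrays, against the same 24.2% of all genes on each side. The summed level of these markers was 12.95 against 12.59 to 12.71. Des, which has the highest signal of these genes (12.10 in wild type 1), weighs most in that sum. Its differences from wild type were -0.35, -0.42 and -0.10, knockout 1 first. The median differences over the 8 markers were -0.04, 0.02 and -0.11 in the same order, so the sum does not describe the whole smooth muscle list. Among the 8 markers the contractile genes Cnn1 (-0.79, SE 0.22) and Acta2 (-0.76, SE 0.25) had limma adjusted p-values of 0.596 and 0.712. Myh11, the smooth muscle myosin, stood at 0.24. In knockout 3 alone these were -0.71, -0.78 and -0.08. Cnn1 was lowest in knockout 1, at 6.31 against 7.36 in wild type 1, as were Tagln and Acta2, at 7.65 and 9.83. Smtn and Myocd were highest in knockout 1, at 8.84 and 9.45, and the remaining smooth muscle markers were neither. The 5 endothelial markers had a summed level of 11.35 in wild type 1 and 11.38 to 11.82 in the knockout hearts, and the 6 atrial markers one of 13.29 against 12.11 to 13.36. Nppa, which has the highest signal of these atrial genes, weighs most in that sum. Its differences from wild type were -1.47, -1.15 and 0.14, knockout 1 first. The median differences over the tested atrial markers were 0.01, -0.76 and -0.17 in the same order, so the sum does not describe the whole atrial list. Bmp10, an atrial marker, lay under the filter on dim genes, and the other markers named in these counts were tested. The part of any of these cell types in the tropomyosin differences was not tested.

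**Figure D4:**
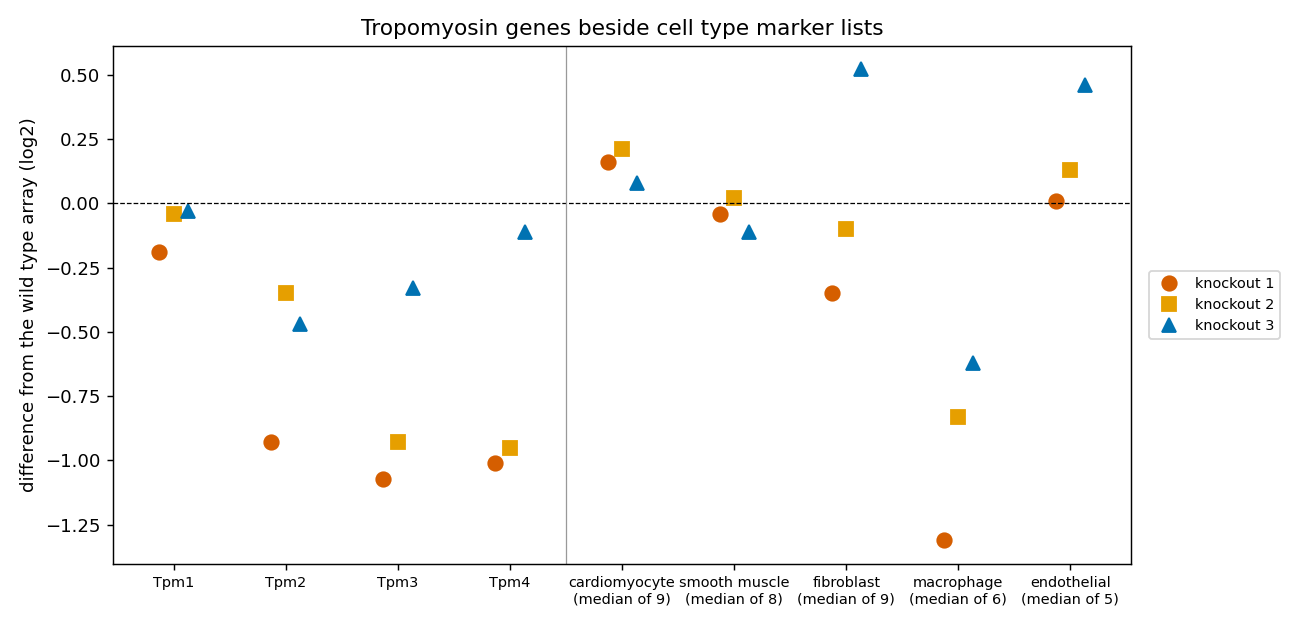
Difference of each knockout array from the wild type array (log2) for the 4 tropomyosin genes (left) and as the median over the tested markers of 5 cell types (right). Macrophage medians rise from -1.31 in knockout 1 to -0.62 in knockout 3. Fibroblast medians (-0.35, -0.1 and 0.52) and endothelial medians (0.01, 0.13 and 0.46) also rise from knockout 1 to knockout 3, as Tpm1, Tpm3 and Tpm4 do. Smooth muscle and cardiomyocyte medians do not, and cardiomyocyte medians lie between 0.08 and 0.21.

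The rest of the thin filament showed no common direction. Over 27 genes of its actin, capping, anchoring and assembly proteins the median difference was -0.04 (-0.05 in knockout 3 alone). On all 3 knockout arrays 7 lay below and 8 above wild type, where 24.2% of all genes tested lay on each side. With limma 0 passed the adjusted threshold and 1 an unadjusted p under 0.05, Xirp1, an actin-binding protein of the intercalated disc (-0.77, SE 0.22, adjusted p = 0.596). Xirp1 read 10.43 in wild type 1 and 9.92, 9.56 and 9.49 in the knockout hearts, so that, unlike Tpm3 and Tpm4, it was lowest in knockout 3.

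The other thin filament genes with the largest differences were Acta1, Xirp2 and Tcap. Acta1, skeletal alpha-actin, differed by -2.39 (SE 1.32, limma adjusted p = 0.935), and it read 0.23 below wild type in knockout 3 against 4.48 below in knockout 1. Xirp2, a relative of Xirp1, stood at -0.63 and Tcap, the titin cap of the Z disc, at 0.57, and in knockout 3 alone at -0.25 and 0.13. Actc1, cardiac alpha-actin and the filament on which the cardiac tropomyosin lies, read 14.02 in wild type 1 and 13.79, 13.88 and 13.91 in the knockout hearts, a difference of -0.16 (SE 0.17, limma adjusted p = 0.973).

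Partners of the troponin switch were read for comparison, beside the 24.2% of all genes that lay below and the 24.2% that lay above wild type on all 3 knockout arrays. Over 15 genes of the thick filament and of calcium handling the median difference was 0.14 (0 in knockout 3 alone), with 1 below and 7 above wild type on all 3 knockout arrays, and with limma 0 passed either the adjusted threshold or an unadjusted p under 0.05. The largest differences were those of Myl7, the atrial light chain (-0.65, SE 0.44), Myh7, the slow myosin heavy chain (0.61, SE 0.47), Cacna1c, the L-type calcium channel (0.52, SE 0.24), and Myl4, another atrial light chain (-0.43, SE 0.25). In knockout 3 alone they were -0.91, -0.15, 0.24 and -0.34, so that Myh7 lay on the other side of wild type there. Ryr2, the calcium release channel whose calcium acts on troponin C, stood at 0.42 (SE 0.18, limma adjusted p = 0.895), and 0.47, 0.49 and 0.30 above wild type in knockouts 1, 2 and 3.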

How the data were processed

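The authors deposited 1 log2 value per probe set and array. Per the submitters' processing notes these come from RMA in Affymetrix Expression Console. No version or array build is stated in the sources used here. RMA equalises the arrays' distributions, which hides a shift common to most genes, and it shrinks differences at low signal. Of 35556 probe sets, 21789 had 1 gene symbol in the platform annotation, 1621 had several and 12146 were not listed. Only those with 1 symbol were used, and 21698 of them matched the RefSeq table by gene identifier, as did all 10 members. Genes with a 4-array mean under the 25th percentile of all probe sets (4.1) were left out.

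The test was a two-sided limma fit (lmFit and eBayes, limma 3.58.1, R 4.3.3), with Benjamini-Hochberg adjustment over 16708 genes and a threshold of 0.05, on 2 residual and 5.05 prior degrees of freedom. The fit was run on simulated data drawn with equal spread in the wild type and knockout arrays. That run therefore did not test the equal spread assumed for wild type 1. The number of arrays limits the precision. The members and lists were chosen with earlier results of these data known. The genes named are the 10 members, the 4 genes most like each of the 3 members of widest range, up to 4 genes of a list with the largest difference, and Fbxo32, Xist and Eif2s3y. Other genes of the marker lists, and Actc1, Ryr2, Tnni2 and Tnnc2, were named after their values were seen. Alternatives covered renewed quantile normalization, median centring, stricter and no filters, the mean over a gene's probe sets, trended and robust variances, a threshold of 0.1, Xist as a covariate, and each knockout array left out in turn. A filter at the 25th percentile of the genes with 1 symbol, and each other Tpm3 probe set, were chosen after seeing the data.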

Additional observations from a re-analysis of the deposited data

How the results depend on the processing

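The 10 members gave 0 calls under every alternative run, and the limma adjusted p-values ran from 0.391 (Tpm4) upward. Over all genes tested the main count of 1 call became 0 with renewed quantile normalization, without a filter on dim genes, with Xist as a covariate and without any 1 of the knockout arrays (range 0 to 0). It became 8 with arrays centred on their median, 3 with the filter at the 50th percentile, 7 with a variance trend, 9 with robust variances and 9 at a threshold of 0.1. Members at an unadjusted limma p under 0.05, 1 in the main comparison, numbered 2 (Tpm2 and Tpm3) with centring and with robust variances, 0 with the mean over all probe sets of a gene, 0 with Xist as a covariate, and 0 to 2 when a knockout array was left out. Members on 1 side of wild type numbered 5 to 7 when a knockout array was left out, where fewer arrays have to lie on that side. With Xist as a covariate, which sets knockout 3 alone against wild type 1, the differences of Tnnt1, Tnnt3 and Tnni3 reversed to 0.02, 0.01 and -0.12, and those of Tpm2, Tpm3 and Tpm4 were -0.47, -0.33 and -0.11. Tpm2, Tpm3 and Tpm4 kept a negative sign under every alternative run, from -0.70 to -0.41, -1.0 to -0.30 and -0.98 to -0.11. The 6 isoform differences moved by less than the knockout SD under each alternative run on them, which did not include Xist as a covariate. In knockout 3 alone, Tnni1 minus Tnni3, Tnnt1 minus Tnnt2 and Tnnt3 minus Tnnt2 were 0.31, 0.09 and 0.08. Their means were -0.02, -0.05 and -0.27. Tpm2, Tpm3 and Tpm4 minus Tpm1 were -0.44, -0.30 and -0.08 there, against means of -0.50, -0.69 and -0.60. The isoform differences thus depended on which knockout arrays were read. For the other changes the cause was not tested. No paired analysis was possible because the groups share only replicate number 1.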
